A study of Phaseolus vulgaris with 4 samples.

Results

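The genes described here are transcripts that were abundant and at a similar level in the suspensor and the embryo proper of the globular-stage common bean embryo. A gene belonged to the set when it had at least 100 RPKM (a read count scaled by gene length and by the reads of the library) in all 4 libraries and its highest value was under 2 times its lowest. Of the 20961 genes listed in at least one library, 431 reached 100 RPKM in all 4 libraries, and 130 of these met both conditions. The levels of the members and the size of their differences were used to choose them, so these values are given as a description and carry no test.

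The study sequenced transcripts from seeds of Phaseolus vulgaris cultivar G19833, and the labels name no other genotype and no treatment. The groups are suspensor and embryo proper, each with 2 libraries called biological replicates in the labels. Seeds were fixed 6 days after pollination at a length of 1.6 to 2.0 mm, and each region was cut from 6 micron paraffin sections by laser capture. Per library, 5 ng of total RNA was amplified, and the cDNA then passed through 10 PCR cycles. The labels do not say how many embryos or plants went into a library or whether libraries shared them, so spread between libraries may be partly technical. The suspensor is a stalk that anchors the embryo and supplies it from the surrounding seed, and it degenerates later. The embryo proper gives rise to the plant body. In beans the suspensor cells are large and carry many copies of the genome, whereas the embryo proper consists of small dividing cells. Transcripts that serve basic functions of every cell, such as protein synthesis, energy supply and the cytoskeleton, are commonly abundant in unlike tissues. The files give gene IDs only and do not pair them with product names. None of the IDs (0 of 20961) matched the 34165 genes of the RefSeq table for the assembly P. vulgaris v2.0, so no function is assigned to any gene below. Chromosomes are those written in the gene IDs.

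The library totals recovered from the RPKM values were 56813099 and 55135334 reads for suspensor replicates 1 and 2, and 60900034 and 73408617 reads for embryo proper replicates 1 and 2. Every member had at least 2142 recovered reads in every library, where the counting error (1 SD) was 2.16%. Counting error was thus small beside differences near the 2-fold limit, but it does not cover errors of amplification. RPKM is a share of a library. Fewer cells expressing a gene and less RNA per cell cannot be told apart in it, and an even RPKM does not say that cells of both regions held equal amounts.

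The 130 genes held a like share of the summed RPKM in both regions, as the rule's limit on their ratios largely ensures. Their share was 11.1% and 10.3% in suspensor replicates 1 and 2, and 10.7% and 11.2% in embryo proper replicates 1 and 2. The regions overlapped, with a mean of 10.7% ± 0.552 for suspensor and 10.97% ± 0.359 for embryo proper (SD, n = 2 each). The median member had 230.7 and 239.7 RPKM in the suspensor libraries, and 245.0 and 226.9 RPKM in the embryo proper libraries. Levels within the set were very unequal. By mean over the 4 libraries the members ran from 112.5 to 23335 RPKM, with a median of 238.2; 77 averaged at least 200 RPKM, 26 at least 500 RPKM and 9 at least 1000 RPKM. The 15 most abundant members made up 59.7% of the members' summed mean level.

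**Figure D1:**
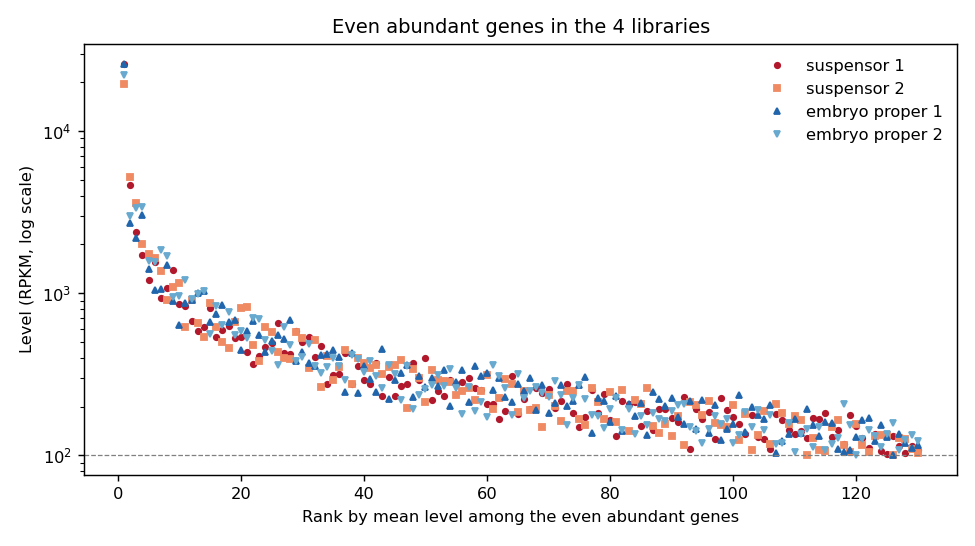
Level in RPKM (log scale) of the 130 even abundant genes in each library, ordered by their mean over the 4 libraries; each gene has 1 point per library and the dashed line marks the floor of 100 RPKM. The most abundant gene stands apart at 19511 to 26049 RPKM, and most members lie between 100 and 500 RPKM.

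Phvul.011G045000 on chromosome 11 was by far the most abundant member. It had 25756 and 19511 RPKM in suspensor replicates 1 and 2, and 26049 and 22021 RPKM in embryo proper replicates 1 and 2. The libraries of the regions interleaved, and replicate 1 was the higher one in both regions. The gene had rank 3 among all genes in both suspensor libraries and rank 1 in both embryo proper libraries. It alone accounted for 3.34% ± 0.749 of suspensor RPKM and 3.49% ± 0.260 of embryo proper RPKM (mean ± SD, n = 2 each). Its mean was 6.03 times that of the next member. Without it the other members held 7.37% ± 0.196 of suspensor RPKM and 7.48% ± 0.619 of embryo proper RPKM. Phvul.011G045000 was the only member among the 10 genes with the highest mean in the series; 8 members were among the top 50 and 15 among the top 100.

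The members next in level differed in whether the regions interleaved. Phvul.003G252700 on chromosome 3 had 2393 and 3613 RPKM in suspensor replicates 1 and 2, and 2203 and 3350 RPKM in embryo proper replicates 1 and 2. In this gene replicate 2 was the higher one in both regions, and the replicates differed by more than the regions. Phvul.006G056900 on chromosome 6 had 1213 and 1737 RPKM in suspensor, and 1400 and 1590 RPKM in embryo proper, so that the embryo proper values lay inside the suspensor range. Phvul.001G259000 on chromosome 1 had 1550 and 1641 RPKM in suspensor, and 1052 and 1559 RPKM in embryo proper; here embryo proper replicate 1 was low and the other libraries lay close together. Phvul.001G088100 on chromosome 1 had 934.2 and 1369 RPKM in suspensor, and 1063 and 1849 RPKM in embryo proper. Replicate 2 was again the higher one in both regions. Phvul.007G026100 on chromosome 7 had the same pattern, with 856.2 and 1152 RPKM in suspensor, and 632.2 and 957.9 RPKM in embryo proper. Among the 130 members, replicate 2 was the higher one in 73 for suspensor and in 63 for embryo proper. The labels do not tie equal numbers to shared material, so nothing is read from a shared order. In Phvul.011G138900 on chromosome 11 only suspensor replicate 1 stood apart, at 677.4 RPKM, with 913.4 RPKM in suspensor replicate 2, and 902.2 and 923.1 RPKM in embryo proper.

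Among the same 15 genes, 3 had both suspensor libraries above both embryo proper libraries. Phvul.011G026900 on chromosome 11, the second most abundant member, had 4616 and 5170 RPKM in suspensor, and 2702 and 2992 RPKM in embryo proper. Phvul.011G100000, also on chromosome 11, had 1382 and 1091 RPKM in suspensor, and 893.1 and 951.4 RPKM in embryo proper. The third, Phvul.011G071300, lies on chromosome 11 as well and had 815.6 and 869.9 RPKM in suspensor, and 660.6 and 556.6 RPKM in embryo proper. Another 5 of the 15 had both embryo proper libraries above both suspensor libraries. The highest of these was Phvul.006G021800 on chromosome 6, with 1709 and 2021 RPKM in suspensor, and 3034 and 3403 RPKM in embryo proper. The largest difference among them was in Phvul.009G248700 on chromosome 9, with 623.1 and 535.1 RPKM in suspensor, and 1026 and 1031 RPKM in embryo proper. The remaining genes of this kind, Phvul.002G045300, Phvul.008G080800 and Phvul.003G187500, averaged 989.1, 724.9 and 620.4 RPKM in suspensor, and 1601, 1036 and 994.3 RPKM in embryo proper. Over the 15169 genes that reached 1 RPKM in 2 or more libraries, suspensor lay above in 27.0% and embryo proper in 28.1%. Nothing is read from the counts of 3 and 5 among these 15 genes.

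**Figure D2:**
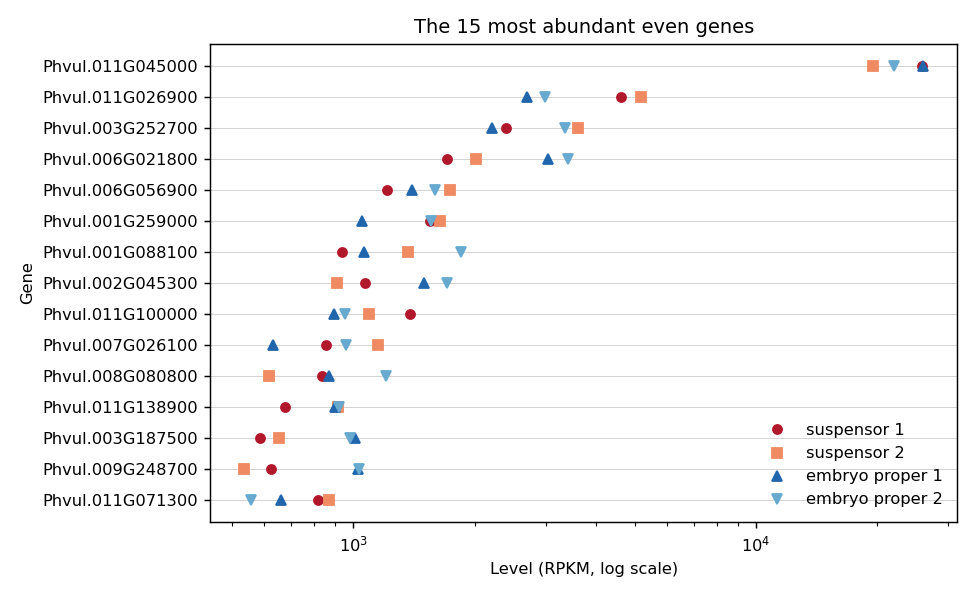
Level in RPKM (log scale) of the 15 even genes with the highest mean, 1 point per library. In 7 genes the libraries of the regions interleave, in 3 both suspensor libraries lie higher and in 5 both embryo proper libraries lie higher. Among all 15169 genes tested, the regions did not overlap in 55.1%.

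Which members were most even depended on the scaling. In RPKM as deposited, the 6 most even members were all below 300 RPKM in every library, whereas with median-ratio or TMM factors the most abundant member, Phvul.011G045000, had the smallest ratio of the 130 (1.12 and 1.17). In RPKM the ratio of highest to lowest library ran from 1.11 to 1.99 with a median of 1.58; it was under 1.2 in 4 genes and under 1.5 in 44 of the 130. Phvul.008G096700 on chromosome 8 had the smallest ratio, 1.11, with 135.3 and 131.7 RPKM in suspensor, and 122.1 and 132.1 RPKM in embryo proper. In Phvul.010G024500 on chromosome 10 the ratio was also 1.11, with 224.2 and 249.5 RPKM in suspensor, and 248.3 and 226.1 RPKM in embryo proper. The regions interleaved in this gene, and the replicates took opposite orders in the regions. Phvul.001G170900 had 142.5 and 155.8 RPKM in suspensor, and 134.8 and 158.5 RPKM in embryo proper, a ratio of 1.18. Phvul.008G054000, Phvul.003G264700 and Phvul.001G086600 followed with ratios of 1.18, 1.21 and 1.22. The lowest value of these 6 genes was 104.1 RPKM and the highest 284.6 RPKM. The coefficient of variation over the 4 libraries ran from 4.37% to 34.8% across the members, with a median of 20.7%.

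Near the limits of the rule the members did not stand apart from the genes left out. Phvul.006G209900, the member with the largest ratio (1.99), had 179.1 and 207.1 RPKM in suspensor, and 104.0 and 117.8 RPKM in embryo proper. Just outside, Phvul.010G048100 had a ratio of 2.01, with 260.9 and 523.6 RPKM in suspensor, and 358.9 and 400.3 RPKM in embryo proper. Ratios from 1.9 to 2 were held by 15 genes at 100 RPKM or more in all libraries and ratios from 2 to 2.1 by 17. At the floor, Phvul.008G161600 was inside with a lowest value of 100.2 RPKM, and Phvul.001G153100 was outside with 99.3 RPKM and a ratio of 1.35. The lowest library lay between 100 and 110 RPKM in 19 members, and between 90 and 100 RPKM in 14 genes of the same evenness that the floor left out.

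The position of the regions relative to each other was mixed within the set. Both suspensor libraries lay above both embryo proper libraries in 24 of the 130 members, both embryo proper libraries lay above both suspensor libraries in 34, and the regions overlapped in 72. Over the 15169 genes that reached 1 RPKM in 2 or more libraries, the regions did not overlap in 55.1%, with suspensor above in 27.0% and embryo proper above in 28.1%. The corresponding share of the members was 44.6%, and since the rule bounded the differences nothing is read from this. In 52 of the 130 members (40%) the difference between regions exceeded both differences between replicates, taken as log2(RPKM + 1), against 43.9% of all genes tested, and in 78 members a replicate difference was the larger one. The median absolute difference was 0.28 between regions, 0.25 between suspensor replicates and 0.26 between embryo proper replicates on that scale. The difference between regions is one of means over 2 libraries, whereas a replicate difference is one of single libraries. Means vary less than single libraries, so these values and counts do not compare like with like. No library was consistently high or low. The highest value fell in suspensor replicate 1 for 21 members, in suspensor replicate 2 for 37, in embryo proper replicate 1 for 42 and in embryo proper replicate 2 for 30. The lowest value fell in these libraries for 38, 37, 29 and 26 members.

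The study's comparison is that of transcript levels in suspensor with those in embryo proper. Limma on log2(RPKM + 1) called 10.0% of the 15169 genes tested (adjusted p under 0.05), 4.49% with suspensor higher and 5.55% with embryo proper higher. Of the 130 members 0 were called by limma, 0 had an unadjusted p under 0.05, and their adjusted p ranged from 0.179 to 1.00. Limma-voom on the recovered reads also called 0 members, with 5 at an unadjusted p under 0.05. The rule bounded the differences of the members, so nothing is read from these counts. Without suspensor replicate 1 or 2 limma called 0 genes of any kind, with 3189 and 2947 at an unadjusted p under 0.05.

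The limma interval describes how precisely the difference between regions was estimated for each member in RPKM. It does not cover the choice of scaling. The log2 difference of the members, suspensor minus embryo proper, ran from −0.83 to 0.79 with a median of −0.05, against a median of 0.00 over all genes tested. It was within 0.25 of 0 in 63 members and beyond 0.5 in 31. The standard error had a median of 0.39, and the 95% interval reached a median of 0.90 to either side of the estimate. The interval included 0 in all 130 members, but lay wholly within −1 and 1, a 2-fold difference either way, in only 22 of them. For Phvul.010G024500 the difference was 0.00 with an interval from −0.86 to 0.85. For Phvul.011G045000 it was −0.10 with an interval from −1.23 to 1.04, which reaches past a 2-fold difference in both directions, and farther on the side of a higher level in embryo proper. The largest differences within the set were 0.79 (interval −0.10 to 1.69) in Phvul.006G209900 and −0.83 (interval −1.67 to 0.01) in Phvul.009G248700. These intervals come from the fit over all genes, which draws on the spread of other genes as well as that of the member. An interval thus does not rest on the values of its member alone. The members were also chosen for small differences.

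**Figure D3:**
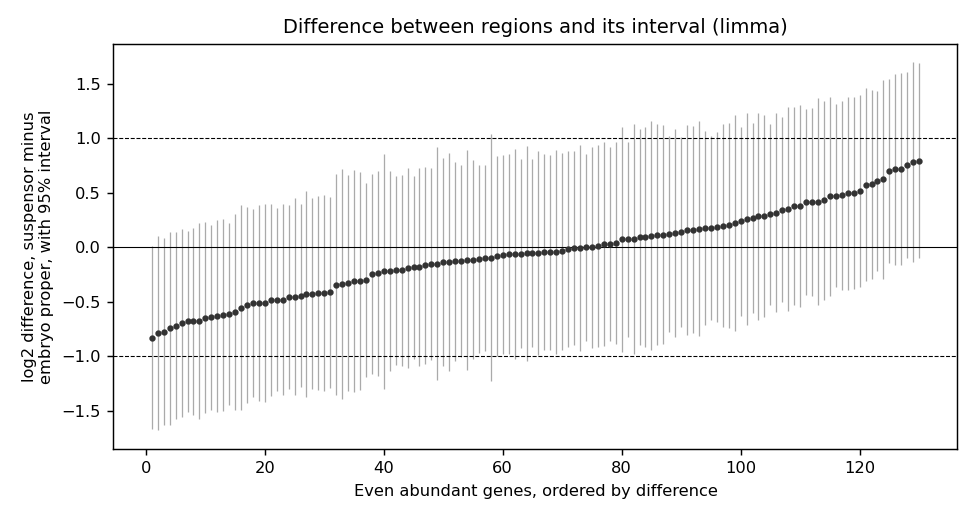
Log2 difference of each of the 130 members, suspensor minus embryo proper, from log2(RPKM + 1), with the 95% interval from limma; dashed lines mark a 2-fold difference in either direction. The estimates run from −0.83 to 0.79, all intervals include 0, and 22 lie between the dashed lines.

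As a first measure, genes were chosen on libraries of a single replicate number and measured on the others, which had no part in that choice. The genes chosen this way are a wider set than the members, so the shares do not describe the members alone. Libraries of equal number were paired across the regions, although the labels do not tie equal numbers to shared material. The opposite pairing was not tested. When genes were chosen as even on the libraries of replicate 1 alone (at least 100 RPKM in both regions and under 2-fold apart), 273 qualified. In the libraries of replicate 2 the regions were within 2-fold in 209 of them (76.6%), with suspensor at least 2-fold above in 26 and embryo proper at least 2-fold above in 38. Of the 51 genes with suspensor at least 2-fold above in replicate 1, 23.5% were within 2-fold in replicate 2, and of the 209 with embryo proper at least 2-fold above, 43.1% were. In the opposite order, 332 genes were even on replicate 2, and 203 of these (61.1%) were within 2-fold in replicate 1. Most of the rest lay in one direction, with embryo proper at least 2-fold above in 108 and suspensor in 21. Of the genes at least 2-fold apart in replicate 2, 22.6% of the 62 with suspensor above and 14.1% of the 149 with embryo proper above were within 2-fold in replicate 1. In this pairing, genes chosen as even were more frequently even in the other replicate than those chosen as uneven in all 4 comparisons. The comparisons are not independent, because they reuse the same libraries and each even group serves more than once. The uneven genes were chosen for a difference of at least 2-fold, so the contrast also reflects differences that recurred. Genes are not independent replicates, so no p-value is attached to these shares.

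A second measure left out 1 library at a time and took its distance from the mean of the other 3. This is not the distance between regions, so its shares are not comparable with those above. The mean mixed both regions, and the comparison genes were chosen for a spread of 2-fold or more over the same 3 libraries. Their lower shares are thus partly set by the choice, and nothing is read from the contrast. Of the 185 genes even on the libraries other than suspensor replicate 1, 88.6% lay within 2-fold of the mean log2 level of the others in that library, against 47.6% of the 294 other genes at 100 RPKM or more. For suspensor replicate 2 the shares were 86.6% of 186 genes and 64.2% of 282 genes. Embryo proper replicate 1 departed most, with 78.2% of 225 genes and 35.1% of 248 genes within 2-fold. For embryo proper replicate 2 the shares were 88.0% of 183 genes and 75.9% of 291 genes. The 130 members were 57.8% of the genes even without embryo proper replicate 1, and between 69.9% and 71.0% of those even without one of the other libraries. Of the 225 genes chosen without embryo proper replicate 1, 138 lay above the other libraries there and 87 below.

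The other 301 genes at 100 RPKM or more in all libraries were unequal in direction. Both embryo proper libraries lay above both suspensor libraries in 212, both suspensor libraries lay above in 47, and the regions overlapped in 42. Their median log2 difference, suspensor minus embryo proper, was −1.12, and limma called 14 of them with suspensor higher and 71 with embryo proper higher (adjusted p under 0.05). Even genes were therefore 30.2% of the abundant ones. Genes were also grouped by their lowest library. The highest library was under 2 times the lowest in 2.90% of the genes at 1 to 3 RPKM, 10.6% at 3 to 10 and 23.7% at 10 to 30. The share was 34.2% at 30 to 100, 30.6% at 100 to 300 and 28.9% above 300 RPKM. At 30 RPKM or more it lay between 28.9% and 34.2%. The lowest library set both the group and the ratio, so a gene with 1 low library fell into a lower group and counted as uneven. The rise at the low end is therefore partly built in.

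**Figure D4:**
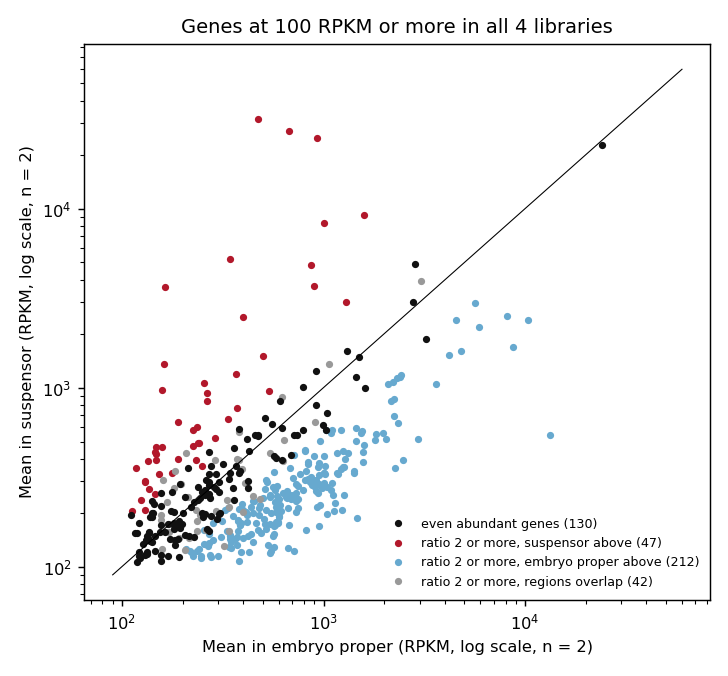
Mean RPKM in suspensor (vertical, log scale) against mean RPKM in embryo proper (horizontal, log scale) for the 431 genes at 100 RPKM or more in all libraries, n = 2 per mean; the line marks equal levels. The 130 members lie along the line, 212 of the other genes lie on the embryo proper side and 47 on the suspensor side, with regions that do not overlap.

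Gene length was not itself a condition of the rule, but RPKM is scaled by gene length. At equal reads a shorter gene passes the floor of 100 RPKM more easily. The comparison with all genes tested is therefore not free of the rule. Lengths recovered from the steps in the RPKM values are the shortest that give whole reads, so some can be too short. The members had a median length of 1316.5 bp, with quartiles at 876.8 and 1901 bp. The other genes at 100 RPKM or more had a median of 993.0 bp, and all genes tested had 1614 bp. Members over 3000 bp numbered 16 (12.3%), against 8 (2.66%) of the other abundant genes and 11.2% of all genes tested. Members under 1000 bp numbered 45 (34.6%), against 50.8% of the other abundant genes and 20.4% of all genes tested. Among the other abundant genes the median was 1353 bp for those with suspensor above, 941.0 bp for those with embryo proper above and 988.0 bp for those with overlapping regions. Genes over 3000 bp numbered 1 of 47 (2.13%) with suspensor above and 5 of 212 (2.36%) with embryo proper above. With overlapping regions they numbered 2 of 42 (4.76%). Each share lay below the 12.3% of the members, and these counts are too small to order the groups. No test was made, because genes are not replicates.

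The longest member was Phvul.009G003300 on chromosome 9, at 4897 bp, with 191.2 and 150.1 RPKM in suspensor, and 146.4 and 166.6 RPKM in embryo proper. The shortest was Phvul.001G146500 on chromosome 1, at 219 bp, with 207.6 and 192.1 RPKM in suspensor, and 253.1 and 360.9 RPKM in embryo proper. The regions interleaved in the long gene, and embryo proper was above in the short one. Long genes also occurred among the most abundant members: Phvul.006G056900 and Phvul.007G026100 measured 3596 and 3963 bp. The most abundant member, Phvul.011G045000, measured 853 bp.

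**Figure D5:**
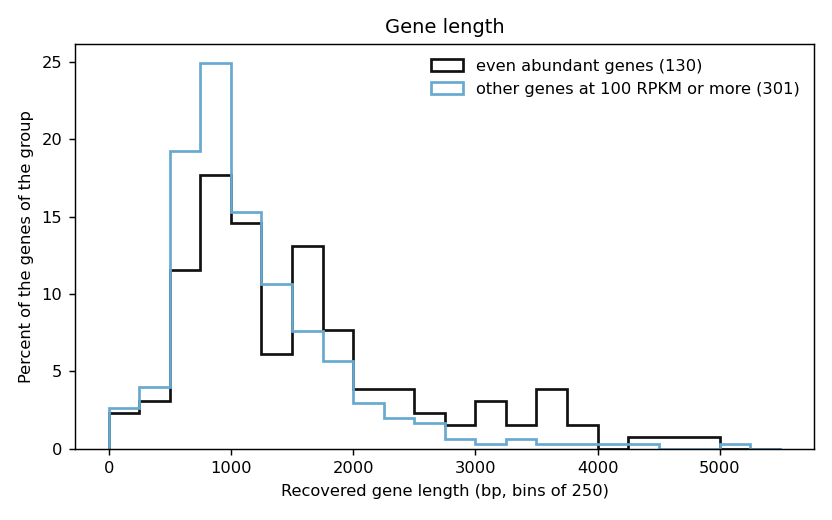
Distribution of recovered gene length (bp, bins of 250) for the 130 even abundant genes and for the other 301 genes at 100 RPKM or more in all libraries, as a percent of each group. The members have the higher median, 1316.5 bp against 993.0 bp, and the larger share over 3000 bp.

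The members lay on all 11 chromosomes, between 6 on chromosome 10 and 19 on chromosome 2. As a share of genes tested they ran from 0.569% on chromosome 9, with 9 members, to 1.205% on chromosome 11, with 13 members. On chromosome 11 they were 44.8% of the 29 abundant genes, and on chromosome 10 they were 21.4% of 28. Chromosome 11 also carried 5 of the 15 most abundant members, among them the first and the second. These counts are small and no test was made of them.

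Most members had no other member next to them. Of the 130, 11 lay next to another member in ID order among the listed genes, in 6 neighbouring pairs. The other 301 abundant genes held 7 such pairs, and no test was made. The longest run of members held 3 genes. Those 3, on chromosome 7, differed in length and pattern. Phvul.007G199400 (1631 bp) had 178.4 and 107.8 RPKM in suspensor, and 197.5 and 149.3 RPKM in embryo proper. Phvul.007G199500 (3018 bp) had 170.4 and 131.1 RPKM in suspensor, and 224.7 and 187.3 RPKM in embryo proper. In both, replicate 1 was the higher one in each region. Phvul.007G199600 (1134 bp) did not share this order, with 290.9 and 282.0 RPKM in suspensor, and 200.8 and 341.0 RPKM in embryo proper. Of the other pairs, 3 had members of similar length: Phvul.002G307600 and Phvul.002G307700 (875 and 886 bp), Phvul.008G281300 and Phvul.008G281400 (2515 and 2458 bp), and Phvul.011G138900 and Phvul.011G139000 (850 and 706 bp). These pairs were singled out after their values were seen. The authors' handling of reads that match several genes is not given in the sources used here, so levels of near-identical copies are uncertain.

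Membership depended on how libraries were scaled. Of the 130 members, 123 remained even when RPKM was rescaled to equal sums, 88 with median-ratio size factors and 82 with TMM factors, and 79 remained under all 3 scalings. The factors of the suspensor libraries differed most, 1.19 for replicate 1 and 0.866 for replicate 2 by the median ratio, against 1.07 and 0.912 for the embryo proper libraries. Of the 48 members lost with TMM factors, 38 then had their lowest value in suspensor replicate 1. Phvul.011G045000 remained a member under all 3 scalings, with a ratio of 1.12 to 1.38, against 1.34 in RPKM. Phvul.003G264700, at 273.7 and 235.2 RPKM in suspensor, and 284.6 and 259.0 RPKM in embryo proper, kept a ratio between 1.21 and 1.27 under RPKM and all 3 scalings. The other 5 of the 6 most even members moved more. With TMM factors the ratio was 1.42 in Phvul.008G096700, 1.62 in Phvul.010G024500 and 1.59 in Phvul.001G170900, against 1.11, 1.11 and 1.18 in RPKM. Phvul.008G054000 and Phvul.001G086600 reached ratios of 1.53 and 1.58 with TMM factors and were then lost from the set, with lowest values of 87.9 and 92.5.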

How the data were processed

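Transcripts of laser-captured suspensor and embryo proper were sequenced in 2 libraries per region. The authors deposited 1 table of RPKM values per library, which list only genes above 0; a gene not listed was set to 0. The submitters' processing notes list Bowtie 0.12.7 and bedtools; the sources used here do not give build, annotation, multi-mapping or strand. Totals, gene lengths (30 to 20000 bp) and reads were recovered from the steps of the RPKM values, and whole reads were found within 1e-05 reads or the files' rounding for 100% of the 20961 genes. The main test was limma (version 3.58.1, R 4.3.3) with its trend option and Benjamini-Hochberg adjustment, applied to log2(RPKM + 1) of genes that reached 1 RPKM in 2 or more libraries. Recovery and fit were tested on simulated data. The labels number replicates 1 and 2 in both regions but do not tie equal numbers to shared material, so no block was used. The members, tests and alternatives were chosen with earlier results of these data known, and the held-out comparisons were added last. Genes were named by rank in level, evenness, difference, length, nearness to the limits and runs of neighbours, and only some of those ranked are printed. Lists by product name were not used, because no IDs matched names.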

Additional observations from a re-analysis of the deposited data

How the results depend on the processing

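The number of even abundant genes, 130, became 44 and 242 with ratio limits of 1.5 and 3, and 325 and 56 with floors of 50 and 200 RPKM. Chosen on 3 libraries it ranged from 183 to 225, the highest without embryo proper replicate 1. The members' share of RPKM, 10.7% for suspensor and 10.97% for embryo proper, became 5.12% and 5.25% with a ratio limit of 1.5, 16.5% and 19.9% with 3, 13.3% and 13.5% with a floor of 50 RPKM, and 8.79% and 9.004% with 200 RPKM. Chosen anew with median-ratio size factors, 103 genes (42 members lost, 15 genes gained) held 8.02% and 8.19%. With TMM factors, 99 genes (48 lost, 17 gained) held 7.73% and 7.84%. Dividing a library by its factor leaves the share of a gene unchanged, so these shares moved only through the choice of genes. Without the most abundant member the share was 7.37% and 7.48%. Chosen on 3 libraries it lay between 13.02% and 14.4% for suspensor, and between 12.99% and 16.2% for embryo proper; a rule on 3 libraries admits more genes. The members' median log2 difference was −0.096 to 0.0061 when single libraries were left out, changing sign only without suspensor replicate 1. Their median length, 1316.5 bp, was 1221 to 1461 bp under the floors and ratio limits tried. Over all genes, limma called 681 with suspensor higher and 842 with embryo proper higher. Unfiltered, it called 0 and 0, with 4162 at an unadjusted p under 0.05; limma-voom called 397 and 430, and the cause was not tested. When each library was left out in turn, the counts were 0 to 391 and 0 to 618, taking the remaining library of a region to vary as the other region did. The replicate block called 867 and 1035. Deviations of same-numbered libraries had a correlation of 0.07 across genes, and with 2 libraries per region a pairing cannot be judged from it. Members called stayed at 0 under all alternatives run, with at most 12 at an unadjusted p under 0.05. With 2 libraries per region, the 95% interval of 108 of the 130 members reached a 2-fold difference in at least 1 direction. What set the width of these intervals was not tested.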
